A study of Mus musculus with 8 samples.

Results

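Primary epidermal cells of newborn mice carrying the control adenovirus AdGFP were compared between 2 batches of cultures, batch B against batch A. The comparison rests on 4 of the 8 libraries of the study, all those labelled AdGFP: 1 Dlx3WT (wild-type) and 1 Dlx3KO (knockout) library in each batch. The 4 other libraries came from cells of the same genotypes and batches given AdDlx3, a virus that encodes the homeobox transcription factor Dlx3, and serve here only as a second set of cultures. The comparison asks which keratinocyte state differed between cultures before any Dlx3 was added. Batch is the letter in the deposited sample sheet, where the libraries of batch A are all numbered replicate 1 and those of batch B replicate 2. The sources used here do not say what made a batch (a litter, a day or a sequencing run), nor whether replicates came from separate pups. With 1 library per genotype and batch, p-values set the batch difference against its disagreement between the genotypes, with variance shared across genes. They do not measure the spread between replicate cultures or between batches. The differences between these libraries may be technical. The labels call the mice transgenic and do not describe the Dlx3KO allele or what drives its deletion. All 4 libraries come from cells that were plated and then infected, and none from cells without virus.

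Epidermal keratinocytes divide in the basal layer, where they make the keratin pair Krt5 and Krt14. As they leave it they switch to Krt1 and Krt10 in the spinous layer, and then make the proteins and lipids that are cross-linked into the cornified envelope. Cultured keratinocytes also take on features of a wound edge, with Krt6, Krt16 and Krt17, and can answer viral nucleic acid with interferon and chemokines. Dlx3 is a transcription factor of the differentiating layers.

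The sample sheet counts 87121603 and 107719975 alignments in the wild-type and knockout libraries of batch A, and 90990358 and 124857742 in those of batch B. Between 11011 and 11098 genes reached 1 RPKM (reads per gene length in kilobases, relative to library depth) in a library. Krt5 was the most abundant gene in each of the 4, with 1.69% to 2.23% of the summed RPKM. Dlx3 stood at 1.71 RPKM in the wild-type and 0.656 in the knockout library of batch A, and at 1.77 and 0.558 in batch B. It was lower in both knockout libraries and hardly moved between batches, with a log2 difference of -0.05 (limma adjusted p = 0.866).

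Batch separated the 4 libraries more than genotype did. Of 11235 genes tested, those with at least 1 RPKM in 2 or more of the 4 libraries, 1254 (11.2%) were higher and 1628 (14.5%) lower in batch B at an adjusted p under 0.05 in limma with genotype as a term. Of these, 149 higher and 333 lower genes differed at least 2-fold. The same fit called 55 genes (0.490%) between knockout and wild type, 24 higher and 31 lower in the knockout. How far these rest on 1 library could not be judged. Leaving 1 out means dropping the batch term, which puts the batch difference into the error. Batch accounted for 72.1% of the sum of squares over the genes tested, genotype for 17.8% and the remainder was 10.1%. The wild-type and knockout libraries of batch A correlated at r = 0.988 across genes and those of batch B at 0.987, whereas the knockout libraries of batches A and B correlated at 0.951 and the wild-type libraries at 0.976. Genes are not independent replicates, so these correlations are descriptions.

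All 2882 genes called had the same direction in both genotypes. The fit nearly ensures this, since its residual is the disagreement between the genotypes, so it is no separate result. In 2829 of the genes called the 2 batch B libraries lay both above or both below the batch A libraries. That also held for 60.8% of all genes tested, so non-overlap by itself sets few genes apart. The batch difference was larger in the knockout in 2182 (75.7%) of the genes called. At least 2-fold differences numbered 331 in wild-type and 806 in knockout cells, and the median absolute log2 difference was 0.22 and 0.28. Across all genes the wild-type and knockout differences correlated at r = 0.796. The median log2 difference of all genes was -0.05, on a scale that is already relative to library depth.

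**Figure D1:**
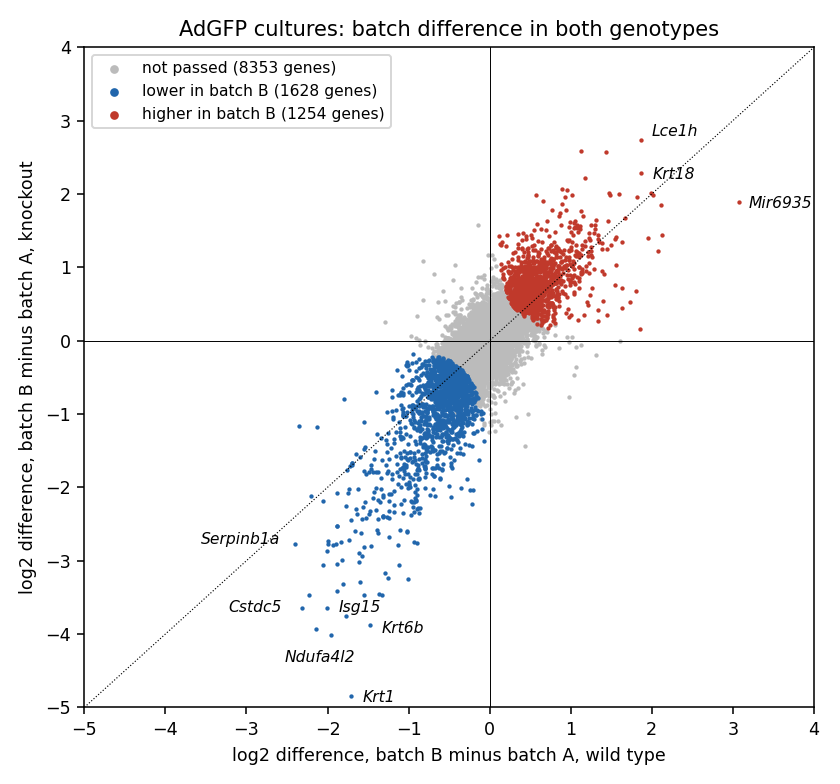
Each point is 1 of the 11235 genes tested, with the log2 difference of batch B minus batch A in wild-type cells on the x axis and in knockout cells on the y axis, both on the log2(RPKM + 0.5) scale; red and blue points passed adjusted p under 0.05. The 2882 called genes lie in the 2 quadrants where both genotypes moved the same way, to which the fit nearly restricts them. The lower arm falls below the dotted line of equality, since most batch differences were larger in knockout cells.

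These counts moved with single libraries. Leaving out 1 library leaves 1 against 2, so the genotype term had to be dropped and the lone library is assumed to vary like the others. The number of genes called was then 1652 without the wild-type library of batch A, 1072 without the knockout library of batch A, 1444 without the wild-type library of batch B and 386 without the knockout library of batch B. At an unadjusted p under 0.05 the counts were 2874, 2235, 3237 and 2816 in the same order, lowest without the knockout library of batch A, so the library that mattered most differs between the 2 thresholds. The fits also differ in limma's prior degrees of freedom, which were infinite without either the wild-type or the knockout library of batch A and 6.43 and 6.36 without those of batch B. With all 4 libraries and no genotype term 1698 genes were called. Below, counts under these 4 fits are given in that order as leave-one-out counts. Genes are called retained when they passed in all 4. Calls over all genes fell in each of these fits, so a drop within a list is not by itself particular to that list.

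The knockout library of batch B stood apart in sex-linked genes. Xist, the RNA that coats the inactive X chromosome, had 30.4 RPKM there, beside 13.6 and 16.4 in wild-type and knockout cells of batch A and 12.3 in wild-type cells of batch B. The Y-linked gene Eif2s3y, a translation factor subunit, was lowest there, with 5.77 RPKM against 8.42 and 8.95 in batch A and 7.56 in the wild-type library of batch B. Ddx3y, a Y-linked RNA helicase, was also lowest there with 4.28 RPKM against 5.23 to 6.06 in the others, and Uty, a Y-linked demethylase, with 0.794 against 1.11 to 1.31. Of 5 sex-linked genes tested, limma called 0 between batches, and 1 in the fit without the wild-type library of batch B; at an unadjusted p under 0.05 there was 1, Eif2s3y. The last of each set of leave-one-out counts is without this library.

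The 15 genes furthest up in batch B, ranked by the smaller of the within-genotype differences, were of several kinds. The choice takes only genes whose batches do not overlap, so non-overlap is no result here or at the lower end. Some genes met the filter on low values through the libraries of batch B alone or of batch A alone, which nearly fixes their direction. Cxcl3, Krt19, Sema3e and Mir6935 did so through batch B. Tprg, Postn and Serpinb3a, named below as lower, did so through batch A. Cxcl3, a neutrophil chemokine, stood at 0.714 and 0.827 RPKM in wild-type and knockout cells of batch A and at 4.42 and 4.78 in batch B. The log2 difference was 2.01 ± 0.15 (SE; limma adjusted p = 1.68e-05). Krt18, a keratin of simple epithelia, had 3.36 and 4.33 RPKM in batch A and 13.6 and 23 in batch B, a log2 difference of 2.07 ± 0.15 (adjusted p = 1.34e-05). For Cxcl3 the 2 libraries of each batch were close to each other and far from the other batch. For Krt18 those of batch B lay further apart, with the knockout higher. Krt19, another simple-epithelial keratin, rose from 0.543 and 0.707 to 2.57 and 2.71 RPKM. Il24, an epithelial cytokine of the IL-10 family, rose from 1.85 and 1.49 to 5.87 and 11.3 RPKM. Tbx1, a T-box transcription factor, went from 1.30 and 1.03 to 7.28 and 5.0 RPKM, and Etv4, an ETS factor downstream of receptor tyrosine kinases, from 2.41 and 3.11 to 8.30 and 14.0. All of these were retained.

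Other genes of these 15 have varied roles. Akap12, a scaffold for protein kinases, had 8.19 and 13.7 RPKM in batch A and 30.2 and 54.6 in batch B (log2 difference 1.89 ± 0.13, limma adjusted p = 1.34e-05). Slc2a3, a glucose transporter, rose from 5.46 and 5.23 to 18.5 and 17.8 RPKM. Dpysl3, a cytoskeletal protein of migrating cells and axons, rose from 2.33 and 2.42 to 7.41 and 11.1. For each of these the batches stood apart by more than the genotypes did. Sema3e (a secreted semaphorin), Prss22 (a serine protease) and Lce1h (a late cornified envelope gene) were also among the 15, with log2 differences of 1.75, 1.55 and 2.30. Csf3, the neutrophil growth factor G-CSF, rose by 1.78 on the log2 scale but did not pass without the knockout library of batch B (adjusted p = 0.102).

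After Cxcl3, the next places in the ranking went to 2 microRNA hairpins. Mir7005 (chromosome 2, 69 bases) had 1.22 and 1.29 RPKM in batch A and 6.30 and 6.74 in batch B. It lies inside Lama5, a laminin chain of the basement membrane, which itself rose by 1.36 on the log2 scale (limma adjusted p = 4.20e-05). Mir6935 (chromosome 11, 64 bases) was listed at 0 and 0.869 RPKM in batch A and had 3.72 and 4.58 in batch B. It lies inside Actg1, whose log2 difference was 0.01 (adjusted p = 0.984), and without the knockout library of batch B it did not pass (adjusted p = 0.0569). Reads of a host gene and of a hairpin within it cannot be told apart in this table.

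The 15 genes furthest down in batch B included protease inhibitors of the serpin and stefin groups near the top of the ranking. Serpinb1a, an inhibitor of neutrophil proteases, had 9.96 and 8.41 RPKM in batch A and 1.47 and 0.799 in batch B, a log2 difference of -2.59 ± 0.16 (limma adjusted p = 1.34e-05). Cstdc5, of the stefin A group of cysteine protease inhibitors, fell from 505 and 605 to 101 and 47.9 RPKM (log2 difference -2.98 ± 0.24, adjusted p = 2.31e-05). Stfa3, of the same group, fell from 324 and 397 to 73.0 and 25.4. In all 3 the knockout library of batch B was the lowest of the 4. Further down the 15, Cdsn, which encodes the corneodesmosome protein corneodesmosin, fell from 62.2 and 54.0 to 15.2 and 7.67 RPKM. Sprr2a3, a small proline-rich envelope precursor, fell from 528 and 484 to 132 and 70.7.

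Cytokine, interferon-induced, matrix and metabolic genes were also among these 15. Tslp, the epithelial cytokine thymic stromal lymphopoietin, had 8.28 and 8.93 RPKM in batch A and 1.40 and 1.68 in batch B (log2 difference -2.16 ± 0.15, limma adjusted p = 1.34e-05). Isg15, an interferon-induced ubiquitin-like protein, fell from 14.0 and 17.2 to 3.11 and 0.907 RPKM. Tgfbi, a secreted matrix protein induced by TGF-beta, fell from 61.4 and 95.6 to 12.7 and 8.21. Tslp was nearly level between genotypes within each batch, whereas Isg15 and Tgfbi were lowest in the knockout library of batch B. Ndufa4l2, a mitochondrial protein induced by low oxygen, fell from 10.3 and 24.2 to 2.28 and 1.03 RPKM. Of the remaining 6, Cyp2b10, Cstdc6, Sdr16c6, Rbp2, Tprg and Sprr2a2, the log2 differences lay between -2.56 and -2.12. All 15 leaders downward were retained.

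**Figure D2:**
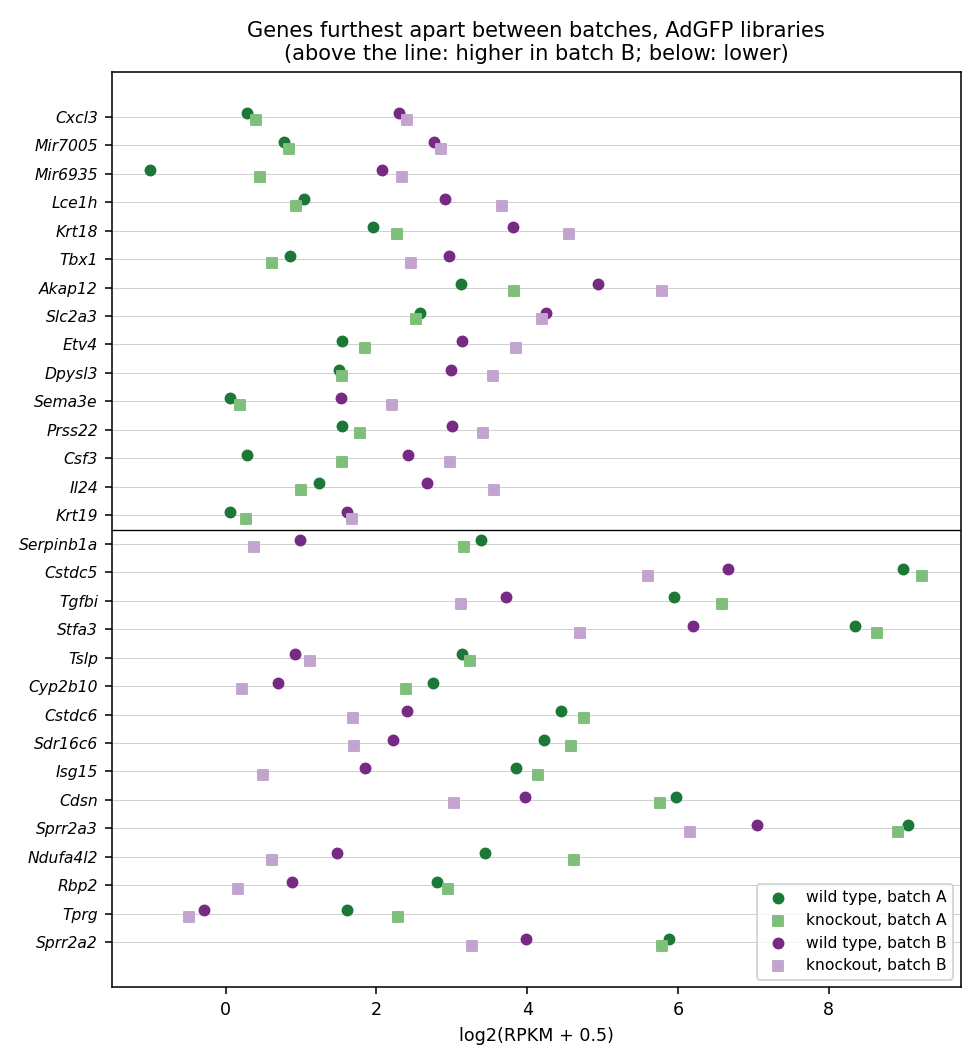
Log2(RPKM + 0.5) on the x axis in each of the 4 AdGFP libraries for the 15 genes higher and 15 lower in batch B with the largest smaller within-genotype difference (circles, wild type; squares, knockout; green, batch A; purple, batch B). In every row the 2 purple symbols stand on one side of the 2 green ones, to which the choice of genes restricts it; the size of the gap and the spread of each colour are what the plot adds.

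Small proline-rich genes, which encode cross-linked precursors of the cornified envelope, were lower almost throughout in batch B. Of 14 tested, 13 fell, 0 rose and 1 did not pass, against 14.5% of all genes lower, and their median log2 difference was -1.64 beside -0.05 for all genes. The leave-one-out counts of lower members were 13, 13, 13 and 8. Sprr2h, whose promoter is also printed here, fell from 159 and 122 to 57.5 and 36 RPKM (log2 difference -1.61 ± 0.14, limma adjusted p = 3.03e-05). Sprr1a fell from 213 and 156 to 97.9 and 72.5, and Sprr1b from 149 and 106 to 82.4 and 42.2, though neither passed without the knockout library of batch B (adjusted p = 0.0831 and 0.176). Sprr2k went from 3.83 and 3.74 to 4.74 and 5.27 RPKM and did not pass. Sprr2a1 and Sprr2a2 carry identical values in the table, and reads may be split among near-identical Sprr2 copies, so the members are not independent measurements.

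Promoters of a strongly lower family are shown because AP-1 sites are a known feature of small proline-rich promoters. The 250 bases before the start of Sprr2a3 (chr3:92285054-92285303, plus strand) and Sprr2h (chr3:92385435-92385684, plus strand) are from RefSeq, GRCm38.p6, in lower case, with matches to TGANTCA on either strand in capitals.
Sprr2a3: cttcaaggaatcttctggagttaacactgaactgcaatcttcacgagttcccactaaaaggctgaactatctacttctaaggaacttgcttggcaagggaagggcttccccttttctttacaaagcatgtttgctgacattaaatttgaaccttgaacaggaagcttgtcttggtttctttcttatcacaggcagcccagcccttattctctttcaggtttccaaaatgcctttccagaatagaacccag
Sprr2h: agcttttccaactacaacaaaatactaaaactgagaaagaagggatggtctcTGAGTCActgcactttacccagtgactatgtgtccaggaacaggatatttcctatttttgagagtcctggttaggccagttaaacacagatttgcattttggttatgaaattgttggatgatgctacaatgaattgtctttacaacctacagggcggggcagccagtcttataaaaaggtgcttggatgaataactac
A match was present in 9 of the 13 small proline-rich genes with a promoter in the reference table. It was present in 7.82% of all promoters of that table, in 5.28% of those of genes tested, in 8.81% of those of genes lower in batch B and in 4.78% of those higher. The largest of the falls, Sprr2a3, has no match in this window. A match is a string of letters, and nothing about binding was measured.

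Most spinous-layer genes were lower in batch B. Of 14 tested, 11 were lower, 0 higher and 3 did not pass, against 14.5% of all genes lower, with a median log2 difference of -0.95 and leave-one-out counts of 12, 9, 7 and 6. Krt1 had 79.9 and 212 RPKM in batch A and 24.0 and 6.87 in batch B, a log2 difference of -3.28 ± 0.48 (limma adjusted p = 0.000636). On the log2 scale it fell by 1.72 in wild-type and fell by 4.85 in knockout cells, a gap between genotypes that was not tested. Its partner Krt10 fell from 20.1 and 34.1 to 7.93 and 3.36 RPKM. Krtdap, a secreted protein of differentiating keratinocytes, fell from 608 and 720 to 238 and 157. Dsc1 and Dsg1a, desmosomal cadherins of the upper layers, fell from 6.82 and 11 to 1.89 and 0.927 and from 23.8 and 48.6 to 7.53 and 4.51 RPKM. These 5 were all retained.

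Most granular and cornified envelope genes were lower too, against 14.5% of all genes lower. Of 19 tested, 15 were lower, 0 higher and 4 did not pass, with a median of -0.95 and leave-one-out counts of 14, 13, 15 and 6. Klk7, a protease that cleaves corneodesmosomes, fell from 43.1 and 41.1 to 20.1 and 16.3 RPKM (log2 difference -1.20 ± 0.13, limma adjusted p = 0.000124). Pof1b, an actin-binding protein of the upper layers, fell from 30.8 and 49.4 to 12.5 and 8.91, and Scel, the envelope protein sciellin, from 3.84 and 5.49 to 1.37 and 0.907. Lor, which encodes the major envelope protein loricrin, overlapped between batches, with 9.65 and 3.38 RPKM in batch A and 6.45 and 3.95 in batch B (adjusted p = 0.506). The late cornified envelope genes went both ways, beside 11.2% of all genes higher and 14.5% lower. Of 15 tested, 3 rose, 3 fell and 9 did not pass, with a median of -0.01, and only Lce1h among the risers was retained; leave-one-out counts were 4, 1, 1 and 1 higher and 0, 1, 0 and 0 lower.

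**Figure D3:**
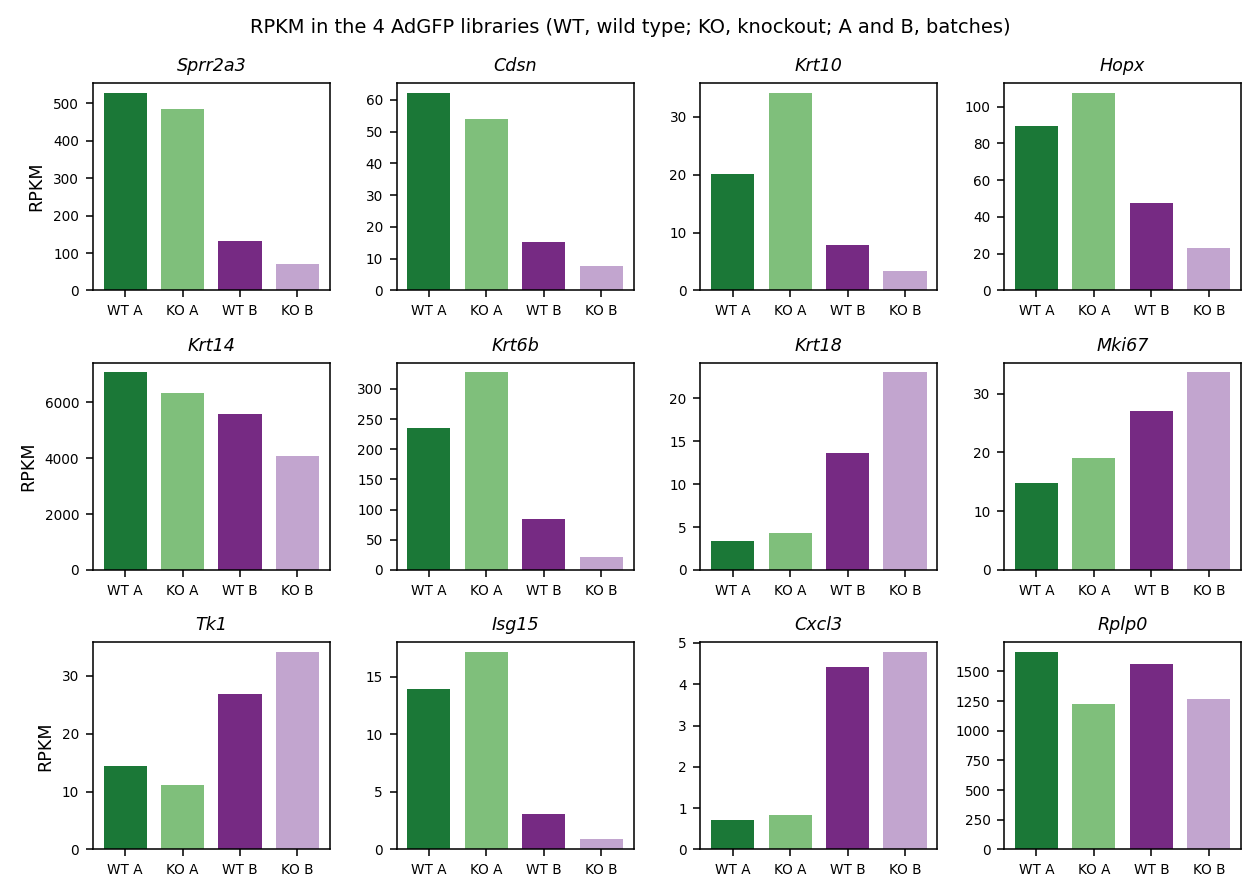
Bars give RPKM (y axes start at 0) in the 4 AdGFP libraries, 1 library per bar and so no error bar, for 12 genes of different keratinocyte states. Sprr2a3, Cdsn, Krt10, Hopx, Krt6b and Isg15 stand lower and Krt18, Mki67, Tk1 and Cxcl3 higher in batch B, while Krt14 did not pass (limma adjusted p = 0.189) and Rplp0 overlaps between batches.

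Several of these genes lie in clusters, whose counts stand beside 11.2% of all genes higher and 14.5% lower. In the epidermal differentiation complex (chr3:90511034-93564645, GRCm38.p6, from S100a1 to S100a10), 48 genes were tested, of which 20 were lower, 5 higher and 23 did not pass, with leave-one-out counts of 14, 17, 15 and 9 lower. These 20 include the 13 small proline-rich genes already counted above as lower. Among the other genes of the complex, calls went both ways. In the stefin A cluster (chr16:36156811-36455392), a window chosen after its values were seen, 6 of 6 genes tested fell, with a median log2 difference of -2.49 and 6 in each leave-one-out fit. Its members Stfa1, Stfa2 and Csta3 fell by 2.13, 2.41 and 1.34 on the log2 scale. In the clade B serpin cluster (chr1:106861175-107608978), 6 of 7 tested were lower, with leave-one-out counts of 6, 6, 6 and 2. The type I keratin cluster had 4 lower and 1 higher of 8 tested, and the type II cluster 5 lower and 3 higher of 12. Stefin A genes are near-identical copies, and how reads were shared among them is not given.

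Kallikrein and serpin genes were lower or did not pass, beside 14.5% of all genes lower. Of 17 kallikrein and serpin genes tested, 11 were lower and 0 higher, with a median of -0.97 and leave-one-out counts of 11, 12, 11 and 5. Spink5, the kallikrein inhibitor LEKTI, fell from 27.8 and 21.0 to 10.4 and 5.70 RPKM (log2 difference -1.59 ± 0.14, limma adjusted p = 3.86e-05). Serpinb3a, counted in the clade B serpin cluster as well, fell from 3.49 and 7.05 to 0.858 and 0.179. Serpinb6c fell from 15 and 17.3 to 6.90 and 8.30, so its fall was alike in both genotypes while that of Serpinb3a was larger in the knockout.

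Transcription factors of differentiation were lower or did not pass, and none rose, against 14.5% of all genes lower. Of 28 tested, 15 fell, with a median of -0.48, and leave-one-out counts were 10, 10, 13 and 4. Ehf, an ETS factor of epithelia, fell from 12.8 and 14.6 to 6.02 and 3.39 RPKM (log2 difference -1.49 ± 0.19, limma adjusted p = 0.00032). Hopx, an atypical homeodomain protein, fell from 89.5 and 107 to 47.7 and 23.1. Grhl1, a grainyhead factor that controls desmosomal cadherin genes, fell from 30.2 and 35.8 to 17.2 and 9.53. In these 3 the knockout library of batch B was lowest, and all 3 were retained. Klf4, a zinc-finger factor needed for the skin barrier, was level, with 68.0 and 69.6 RPKM in batch A and 75.5 and 69.1 in batch B (adjusted p = 0.736).

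Barrier lipid genes were lower or did not pass, with 1 exception, beside 11.2% of all genes higher and 14.5% lower. Of 23 tested, 10 fell, 1 rose and 12 did not pass, with a median of -0.36; leave-one-out counts were 6, 6, 9 and 4 lower and 0 higher in each. Sptlc3, a subunit of the enzyme that starts sphingolipid synthesis, fell from 10.5 and 12.4 to 2.5 and 2.56 RPKM (log2 difference -1.98 ± 0.14, limma adjusted p = 1.34e-05). Elovl4, which makes very long acyl chains, fell from 18.2 and 23.3 to 6.99 and 3.99, and Elovl7 from 25.4 and 31.0 to 12.8 and 15.5. Cyp4f39, an omega-hydroxylase of acylceramide synthesis, fell from 9.88 and 10.1 to 5.19 and 2.37. These 4 were retained. The exception was Aloxe3, an epidermal lipoxygenase, which rose from 4.11 and 3.64 to 6.0 and 5.36 RPKM (adjusted p = 0.0237) and passed in none of the leave-one-out fits. Of 30 genes of sterol and fatty acid synthesis 2 rose and 1 fell (leave-one-out counts 0 higher in each and 1, 0, 1 and 0 lower), with a median of -0.09.

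Retinoid, junction and desmosome genes went both ways, beside 11.2% of all genes higher and 14.5% lower. Of 11 retinoid and vitamin D genes, 7 fell and 2 rose (leave-one-out counts 4, 5, 7 and 3 lower and 1, 1, 2 and 1 higher). Cyp26b1, which degrades retinoic acid, rose from 4.40 and 4.61 to 9.76 and 11.4 RPKM (log2 difference 1.14 ± 0.14, limma adjusted p = 0.00023). Aldh1a3, which makes retinoic acid, fell from 3.57 and 2.87 to 1.21 and 0.913, and Crabp2, which binds it, from 25.8 and 37.8 to 13.4 and 8.17. Of 14 tight junction and connexin genes 5 fell and 1 rose, with leave-one-out counts of 4, 2, 3 and 1 lower and 1 higher in each. The connexin gene Gjb2 fell from 38.3 and 40.7 to 18.6 and 13.8 RPKM. Of 11 desmosome genes 4 fell and 2 rose, with leave-one-out counts of 3 lower in each and 0, 1, 0 and 0 higher. The cadherin genes Dsg1b, Dsc2 and Dsc3 fell by 1.90, 1.35 and 1.21 on the log2 scale and were retained.

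Basal keratinocyte genes did not move together, and their counts stand beside 11.2% of all genes higher and 14.5% lower. Of 17 tested, 3 rose, 3 fell and 11 did not pass, with a median of -0.13; leave-one-out counts were 2, 2, 2 and 1 higher and 4, 1, 3 and 0 lower. Krt5 had 9244 and 7922 RPKM in batch A and 7903 and 6223 in batch B (log2 difference -0.29 ± 0.27, limma adjusted p = 0.476). Krt14 had 7065 and 6336, then 5580 and 4075 (adjusted p = 0.189). The keratin pair was thus lower in each genotype in batch B without passing the test. Itga3, a laminin-binding integrin, rose from 74.6 and 73.0 to 156 and 215 RPKM (log2 difference 1.30 ± 0.15, adjusted p = 0.000183) and was retained, as was the laminin gene Lama5, which went from 21.4 and 24.6 to 56.8 and 62.8.

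Wound-edge genes went both ways, beside 11.2% of all genes higher and 14.5% lower. Of 19 tested, 5 rose and 7 fell, with a median of -0.18, and leave-one-out counts were 1, 5, 2 and 1 higher and 7, 6, 5 and 3 lower. Krt6b fell from 236 and 327 to 84.3 and 21.8 RPKM (log2 difference -2.68 ± 0.37, limma adjusted p = 0.000526). Its close copy Krt6a, with 4481 and 5315 RPKM in batch A and 3367 and 2716 in batch B, did not pass (adjusted p = 0.0621), and reads may be shared between the copies. Of the other wound-edge keratins, Krt16 fell by 1.81 on the log2 scale (limma adjusted p = 0.00125). Krt17 had a log2 difference of -0.18 and did not pass (adjusted p = 0.661). Plaur, the urokinase receptor of migrating cells, rose from 35.9 and 33.6 to 65.6 and 80.0. Both Krt6b and Plaur were retained. Of 10 simple epithelial and uroplakin genes, 4 rose and 1 fell, with leave-one-out counts of 4, 4, 3 and 2 higher and 1, 1, 0 and 0 lower. Beside Krt18 and Krt19, Krt8, the partner of Krt18, rose from 3.89 and 5.92 to 10.6 and 16.9 RPKM and missed the threshold without the knockout library of batch B (adjusted p = 0.0576).

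More YAP target and matricellular genes rose than fell. Of 24 tested, 10 rose, 1 fell and 13 did not pass, against 11.2% of all genes higher, with a median of 0.48, but leave-one-out counts of higher members were 3, 11, 3 and 0. The 1 that fell was Postn, which encodes periostin, from 1.89 and 3.81 to 0.383 and 0.472 RPKM (log2 difference -1.79 ± 0.19, limma adjusted p = 0.000106), and it was retained. Thbs1, which encodes thrombospondin-1, rose from 51.9 and 92.3 to 115 and 177, and Ccn1, a YAP target, from 97.8 and 141 to 179 and 262. Neither passed without the knockout library of batch B (adjusted p = 0.203 and 0.192). In both, the lower library of batch B stood above the higher library of batch A, and the knockout stood above the wild type in each batch.

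Genes of cell division rose in batch B. Of 30 mitosis genes 26 rose, 0 fell and 4 did not pass, against 11.2% of all genes higher, and all 30 stood higher in batch B in both genotypes. The median log2 difference was 0.57. Birc5, a subunit of the chromosomal passenger complex, had 8.25 and 7.13 RPKM in batch A and 14.5 and 16 in batch B (log2 difference 0.95 ± 0.14, limma adjusted p = 0.000741). Foxm1, the transcription factor that drives mitotic genes, rose from 12.8 and 12.1 to 22.2 and 23.2. Aurka, a spindle kinase, rose from 20.2 and 19.5 to 33.9 and 34.2. These 3 were retained, and the genotypes were nearly level within each batch. Mki67, the proliferation marker, rose from 14.8 and 19.1 to 27.1 and 33.6, and did not pass without the knockout library of batch B (adjusted p = 0.0928). The count of mitosis genes was sensitive to single libraries: leave-one-out counts were 12, 10, 21 and 3, and 17 with all 4 libraries and no genotype term. Calls over all genes fell in the same fits, so this drop is not particular to mitosis genes. Whether more cells were dividing or each held more of these RNAs cannot be told apart in bulk RNA.

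DNA replication genes moved likewise, against 11.2% of all genes higher. Of 34 tested, 23 rose, 0 fell and 11 did not pass, with a median of 0.49 and leave-one-out counts of 13, 11, 17 and 4. Tk1, thymidine kinase of S phase, rose from 14.4 and 11.1 to 26.9 and 34.1 RPKM (log2 difference 1.23 ± 0.16, limma adjusted p = 0.000381). Mcm10, which helps start replication, rose from 3.50 and 3.23 to 6.94 and 7.44, and Pold1, the catalytic subunit of DNA polymerase delta, from 13.7 and 12.3 to 23.9 and 25.4. All 3 were retained. Cytoplasmic ribosomal protein genes, whose products are in demand in growing cells, gave 0 calls among 46 in limma and in every leave-one-out fit, with a median of -0.04. Rplp0 had 1664 and 1229 RPKM in batch A and 1561 and 1265 in batch B, so genotype and not batch ordered its values.

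Promoters of Birc5 (chr11:117848987-117849236, plus strand) and Mki67 (chr7:135716380-135716629, minus strand) are shown for the CHR, a short element known from genes of late cell cycle. They are the 250 bases before the start that the RefSeq promoter table gives (GRCm38.p6), with matches to TTTGAA on either strand in capitals. The RefSeq entry of Mki67 begins further upstream, so 71 bases of its window lie inside the gene. Birc5 has no match and Mki67 has 2.
Birc5: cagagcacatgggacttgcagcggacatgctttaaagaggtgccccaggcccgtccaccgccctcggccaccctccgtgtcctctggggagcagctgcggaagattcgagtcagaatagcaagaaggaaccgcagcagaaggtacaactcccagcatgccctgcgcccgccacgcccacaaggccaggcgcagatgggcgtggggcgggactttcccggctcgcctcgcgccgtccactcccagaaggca
Mki67: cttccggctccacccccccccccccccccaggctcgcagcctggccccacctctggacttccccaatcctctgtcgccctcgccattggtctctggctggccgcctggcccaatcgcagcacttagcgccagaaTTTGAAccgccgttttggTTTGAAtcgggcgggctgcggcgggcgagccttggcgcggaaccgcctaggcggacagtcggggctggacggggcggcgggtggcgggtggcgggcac
The letters occurred in 11 of the 24 mitosis genes with a promoter in the table, in 12.4% of promoters of genes tested and in 18.3% of all promoters. Among called genes the share was 13.0% of those higher and 13.9% of those lower.

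Interferon-stimulated genes were lower in batch B. Of 22 tested, 17 fell, 0 rose and 5 did not pass, against 14.5% of all genes lower. The median log2 difference was -1.48, with -1.06 in wild-type and -1.91 in knockout cells, and leave-one-out counts were 18, 16, 16 and 13. Usp18, which removes ISG15 from proteins and damps interferon signalling, had 3.30 and 4.97 RPKM in batch A and 0.570 and 0.320 in batch B (log2 difference -2.28 ± 0.21, limma adjusted p = 3.86e-05). Oas1a, a sensor of double-stranded RNA, fell from 2.67 and 3.87 to 0.474 and 0.300. Rtp4, a chaperone for receptors, fell from 2.49 and 3.28 to 0.499 and 0.199. In these and in Isg15 the 2 batch A libraries stood several-fold above both batch B libraries, and all 4 genes were retained. Levels were low throughout: the summed RPKM of the 38 listed genes was 153 and 201 in batch A and 78.2 and 55.7 in batch B. Of the listed genes, 16 did not reach the level needed for testing. A gene can meet the filter through the 2 libraries of batch A alone, as Usp18, Oas1a and Rtp4 did. Such a gene could hardly come out higher in batch B, so part of the count follows from the filter. With at least 5 RPKM required in 2 of the 4 libraries, 8 of the genes kept were lower and 0 higher.

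Promoters of Isg15 (chr4:156200819-156201068, minus strand) and Oas1a (chr5:120907526-120907775, minus strand) are shown for the interferon-stimulated response element that marks this class. They are the 250 bases before the start that the RefSeq promoter table gives, GRCm38.p6, with matches to GAAA and GAAA set 2 bases apart, on either strand, in capitals; matches overlap, 3 in Isg15 and 2 in Oas1a. The last 19 bases of the Oas1a window, which hold the second match and part of the first, lie inside the RefSeq gene entry.
Isg15: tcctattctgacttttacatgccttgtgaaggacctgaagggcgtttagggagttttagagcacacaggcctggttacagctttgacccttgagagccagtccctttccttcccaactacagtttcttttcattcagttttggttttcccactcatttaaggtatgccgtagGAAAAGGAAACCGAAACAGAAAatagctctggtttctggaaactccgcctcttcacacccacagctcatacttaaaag
Oas1a: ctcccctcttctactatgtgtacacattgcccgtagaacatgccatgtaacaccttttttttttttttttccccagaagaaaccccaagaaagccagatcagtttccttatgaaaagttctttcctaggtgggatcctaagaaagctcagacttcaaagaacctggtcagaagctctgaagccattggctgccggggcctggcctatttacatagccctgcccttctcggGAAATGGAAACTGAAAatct
The letters were found in 9 of the 18 tested interferon-stimulated genes with a promoter in the table, in 2.92% of promoters of genes tested, in 4.37% of those lower in batch B and in 2.60% of those higher.

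Genes of antigen presentation were lower or did not pass, beside 14.5% of all genes lower. Of 15 MHC class I and antigen processing genes, 9 fell, 0 rose and 6 did not pass, with a median of -0.72 and leave-one-out counts of 8, 4, 6 and 2. B2m, the common light chain of class I molecules, fell from 110 and 143 to 55.1 and 57.6 RPKM (log2 difference -1.14 ± 0.14, limma adjusted p = 0.000223) and was retained. The heavy chain gene H2-D1 had 194 and 213 RPKM in batch A and 171 and 152 in batch B and did not pass (adjusted p = 0.116).

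Cytokine and defence genes went both ways, beside 11.2% of all genes higher and 14.5% lower. Of 24 IL-1 family and chemokine genes, 8 rose and 8 fell, with leave-one-out counts of 7, 6, 6 and 4 higher and 6, 7, 7 and 6 lower. Ccl2, a monocyte chemokine, rose from 10.6 and 6.94 to 34.1 and 18.3 RPKM (log2 difference 1.49 ± 0.14, limma adjusted p = 4.20e-05), in the direction of Cxcl3. Il1rn, the IL-1 receptor antagonist, fell from 26.3 and 21.2 to 9.50 and 4.72, in the direction of Tslp. Il1a, with 3.48 and 5.44 RPKM in batch A and 3.06 and 5.65 in batch B, followed genotype and not batch. Of 13 innate defence genes, 6 fell and 2 rose, with leave-one-out counts of 5, 8, 8 and 4 lower and 2, 2, 1 and 0 higher. Defb1, a constitutive epithelial defensin, fell from 102 and 89.3 to 34.9 and 32.3 RPKM, and S100a8, a subunit of calprotectin, from 14.9 and 12.3 to 4.79 and 3.22. Both were retained.

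Genes of the integrated stress response and of hypoxia were more often lower than higher in batch B. Of 30 integrated stress response genes, 15 fell, 0 rose and 15 did not pass, with a median of -0.41, and leave-one-out counts of 4, 16, 4 and 1 lower and 1, 0, 0 and 0 higher. Vldlr, a lipoprotein receptor induced by this response, fell from 5.75 and 4.91 to 2.23 and 2.14 RPKM (log2 difference -1.12 ± 0.15, limma adjusted p = 0.000374) and was retained. Atf4, the central factor of the response, overlapped, with 303 and 199 RPKM in batch A and 208 and 192 in batch B. Of 30 hypoxia and glycolysis genes, 14 fell and 1 rose, with leave-one-out counts of 10, 7, 8 and 2 lower and 1 higher in each. Bnip3, a mitophagy receptor, fell from 20.5 and 29.7 to 7.78 and 6.96 RPKM, and Pdk1, which keeps pyruvate from the mitochondria, from 12 and 15 to 6.92 and 5.97. The 1 that rose was Slc2a3. Of 27 oxidative stress genes 3 rose and 4 fell (leave-one-out counts 3, 3, 3 and 2 higher and 0, 3, 1 and 0 lower). Txnrd1, thioredoxin reductase, rose from 28.3 and 22.5 to 60.5 and 68.5 RPKM. Of 22 heat shock and ER chaperone genes 3 fell (leave-one-out counts 0, 2, 1 and 0), and of 36 respiratory chain genes 2 (1, 0, 0 and 0). The shares called in these last 3 lists were near or below those of all genes, 11.2% higher and 14.5% lower.

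Calls went both ways in each signalling list, beside 11.2% of all genes higher and 14.5% lower. Of 26 Wnt genes 5 rose and 3 fell, with leave-one-out counts of 3, 3, 1 and 0 higher and 3, 2, 4 and 2 lower. Sostdc1, a secreted Wnt and BMP inhibitor, fell from 15.5 and 25.9 to 4.16 and 1.46 RPKM (log2 difference -2.76 ± 0.32, limma adjusted p = 0.00017), and the ligand Wnt16 from 10.2 and 13.2 to 3.56 and 2.89. Of 24 BMP and TGF-beta genes 5 rose and 4 fell, with leave-one-out counts of 3, 4, 4 and 3 higher and 5, 2, 2 and 1 lower. Nog, which encodes the BMP antagonist noggin, rose from 5.20 and 4.0 to 10.7 and 10.03 RPKM. Of 11 Notch genes 3 rose and 1 fell, with leave-one-out counts of 1, 1, 2 and 0 higher and 1, 0, 1 and 0 lower. Notch1 itself did not pass, with 61.1 and 63.2 RPKM in batch A and 88.7 and 68.3 in batch B. Of 17 immediate early genes 6 rose and 3 fell, with leave-one-out counts of 4, 3, 3 and 0 higher and 3, 3, 3 and 1 lower. Egr2, an immediate early zinc-finger factor, fell from 3.47 and 2.97 to 1.20 and 0.752. Of 10 AP-1 genes 3 rose and 1 fell, with leave-one-out counts of 3, 1, 1 and 0 higher and 1, 1, 1 and 0 lower. Fosl1, a Fos-family subunit, rose from 4.91 and 2.09 to 11.3 and 15.1 RPKM and missed the threshold without the knockout library of batch B (adjusted p = 0.0598).

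**Figure D4:**
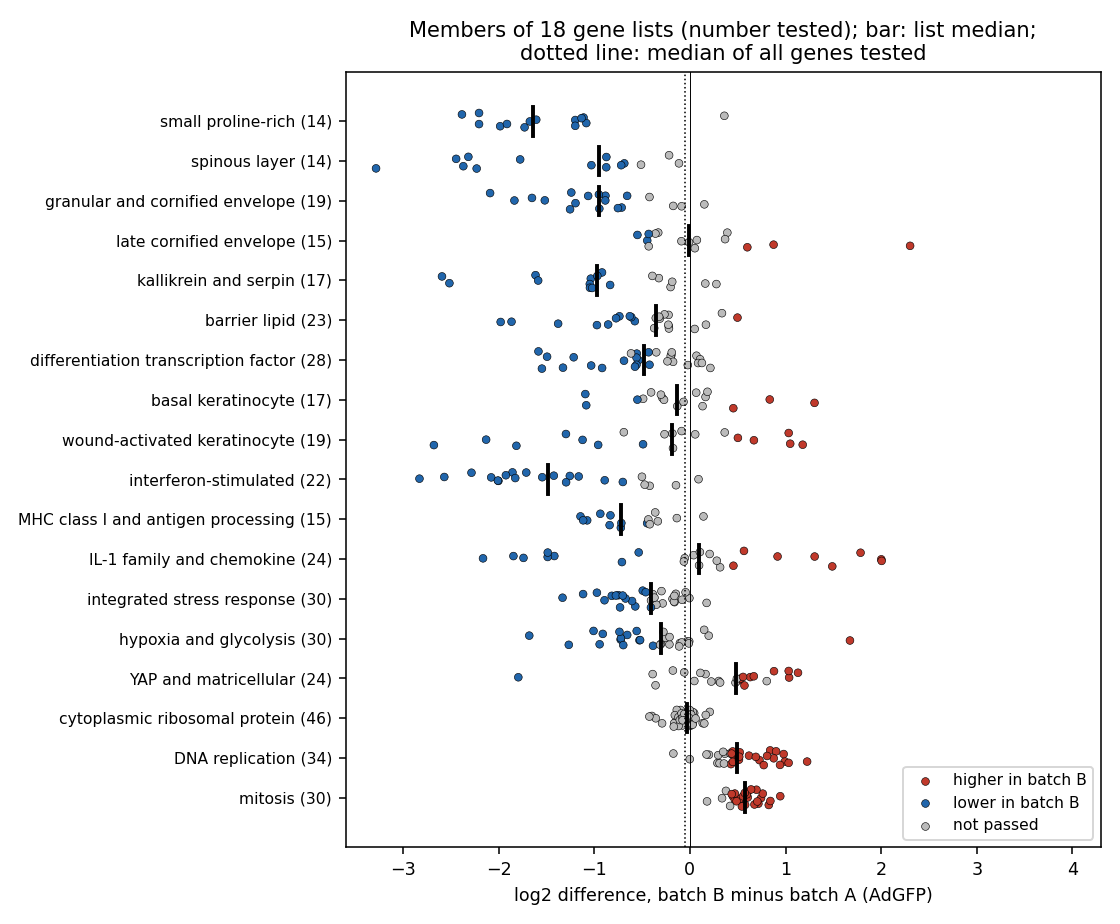
Each point is a tested member of 1 of 18 gene lists, placed on the x axis by its log2 difference of batch B minus batch A in AdGFP cultures; red and blue points passed adjusted p under 0.05, black bars are list medians and the dotted line is the median of all genes tested, -0.05. Small proline-rich, spinous, envelope and interferon-stimulated genes lie to the left, mitosis and DNA replication genes to the right, and ribosomal protein genes around 0.

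Markers of other cells that an epidermal preparation can hold were checked beside these results, and their part in them was not tested. Their counts, here and in the next paragraph, stand beside 11.2% of all genes higher and 14.5% lower. A marker can meet the filter through 1 batch alone, and its direction is then nearly fixed. The immune marker H2-Ab1 did so, with 1.54 and 2.25 RPKM in batch A and 0.739 and 0.517 in batch B. The 18 fibroblast markers summed to 86.4 and 99.9 RPKM in wild-type and knockout cells of batch A and to 82.6 and 89.9 in batch B, of which 11 were tested, with 7 lower and 1 higher (leave-one-out counts 7, 4, 5 and 3 lower and 0, 1, 0 and 0 higher). Among the 7 lower, Col3a1 fell from 3.26 and 4.25 to 1.06 and 1.29 RPKM (limma adjusted p = 0.000164) and Col1a1 from 7.23 and 8.91 to 3.17 and 4.29. The defining markers Pdgfra, Lum and Dpt did not reach the level for testing. The 14 melanocyte markers summed to 416 and 296 RPKM in batch A and to 348 and 244 in batch B, so they followed genotype as well as batch, and of 13 tested 5 were lower (leave-one-out counts 0, 3, 0 and 0). Of 6 Schwann cell markers tested 1 was lower (leave-one-out counts 0, 0, 1 and 0), and the list summed to between 44.2 and 54.0 RPKM. The 20 immune markers in the table summed to 20.4 and 28.4 RPKM in batch A and to 16.6 and 14.1 in batch B, most of it Cd68, with 2 of 2 tested lower (leave-one-out counts 2, 1, 1 and 0) and Cd207 and Cd3g listed at 0. The sebocyte list summed to between 64.6 and 104 RPKM, with 3 of 4 tested lower. Most of that sum was Scd1, the 1 tested member that did not pass. It had 61.8 and 87.1 RPKM in batch A and 55.0 and 62.2 in batch B.

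Endothelial markers summed to 4.59 and 4.07 RPKM in batch A and to 7.59 and 7.12 in batch B, with 2 of 2 tested higher (leave-one-out counts 2, 1, 0 and 0) and Cldn5 listed at 0. Skeletal muscle markers summed to 5.36 and 7.76 RPKM in batch A and to 9.92 and 11.1 in batch B. Of the 2 tested, Tnni2, a troponin subunit, rose from 2.37 and 2.80 to 6.83 and 7.90 RPKM (limma adjusted p = 0.000104) and was retained, and the other fell (leave-one-out counts 1, 0, 0 and 0). Merkel cell, erythroid and fat cell markers summed to at most 2.73, 0.826 and 0.300 RPKM in a library, with none tested.

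The AdDlx3 cultures of the same batches, libraries that the AdGFP comparison does not use, gave a second reading of the batch difference. In them 5531 genes (49.2%) passed, 1967 higher (17.5%) and 3564 lower (31.7%) in batch B, and 2837 passed without either library of batch B. Dlx3 differed between these batches, with 237 and 402 RPKM in wild-type and knockout cells of batch A and 782 and 539 in batch B (log2 difference 1.07, limma adjusted p = 0.0127), so batch and Dlx3 level cannot be told apart there. Of the 2882 genes called under AdGFP, 1541 (53.5%) passed in the same direction, 250 in the opposite direction and 1091 did not pass. Genes lower in batch B passed again as lower in 1073 of 1628 cases and as higher in 82. Genes higher in batch B passed again as higher in 468 of 1254 cases and as lower in 168. Across genes the 2 batch differences correlated at r = 0.525. The difference between them, the interaction of batch and virus, passed for 1937 genes (17.2%; 804 without the wild-type and 1002 without the knockout AdDlx3 library of batch B, and 817 and 1024 without those of batch A), of which 768 were among the 2882. Of these 768, 555 had opposite signs under the 2 viruses, 99 a larger difference in the same direction under AdDlx3 and 114 a smaller one.

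Envelope and interferon-stimulated genes were lower in batch B under both viruses. Under AdDlx3, where 31.7% of all genes were lower, small proline-rich genes had 13 of 14 lower with a median of -1.75, beside -0.11 for all genes. Spinous genes had 14 of 14 lower and a median of -2.06. Sprr2a3 fell further under AdDlx3, by 4.90 on the log2 scale, and the difference between viruses passed (limma adjusted p = 0.00426). Krt10 fell by 3.49, with no interaction passed (adjusted p = 0.130). Interferon-stimulated genes had 18 of 22 lower and 2 higher under AdDlx3, a median of -1.20 and 0 interaction calls in limma (0 to 4 with 1 library left out). Isg15 fell by 1.99 and Usp18 by 2.16.

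Cell division genes differed between viruses. Of the 30 mitosis genes, 1 was higher and 9 lower in batch B under AdDlx3, beside 17.5% and 31.7% of all genes, with a median of -0.17 against 0.57 under AdGFP. The interaction passed for 21 of 30, and for 11 without either wild-type AdDlx3 library, the lowest of the leave-one-out counts; the highest was 22. The 9 lower calls became 4 without the knockout AdDlx3 library of batch A, 1 without the wild-type AdDlx3 library of batch B and 6 without the knockout AdDlx3 library of batch B. DNA replication genes had 3 higher and 12 lower under AdDlx3 and 21 of 34 interaction calls, which fell to 12 without either knockout AdDlx3 library and to 14 and 13 without the wild-type AdDlx3 libraries of batches A and B. The 12 lower calls became 5 without the knockout AdDlx3 library of batch A, 0 without the wild-type AdDlx3 library of batch B and 6 without the knockout AdDlx3 library of batch B. Birc5 differed by -0.35 under AdDlx3 and by 0.95 under AdGFP, with an interaction of -1.30 ± 0.17 (SE; limma adjusted p = 0.00747).

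Other leading genes also parted between viruses, though genes chosen as extreme under AdGFP are prone to differ less under AdDlx3. Akap12 rose by 1.89 under AdGFP and fell by 0.82 under AdDlx3, and Prss22 rose by 1.55 and fell by 1.30. Cxcl3, which rose by 2.01 under AdGFP, had -0.30 under AdDlx3 (limma adjusted p = 0.346). Tslp, which fell by 2.16 under AdGFP, had 0.19 under AdDlx3 (adjusted p = 0.644). Krt18, Krt19 and Dpysl3 rose under both, by 1.88, 2.02 and 2.39 under AdDlx3. Krt5, for which no batch difference passed under AdGFP, fell by 3.87 under AdDlx3, and the interaction passed (adjusted p = 0.00302).

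**Figure D5:**
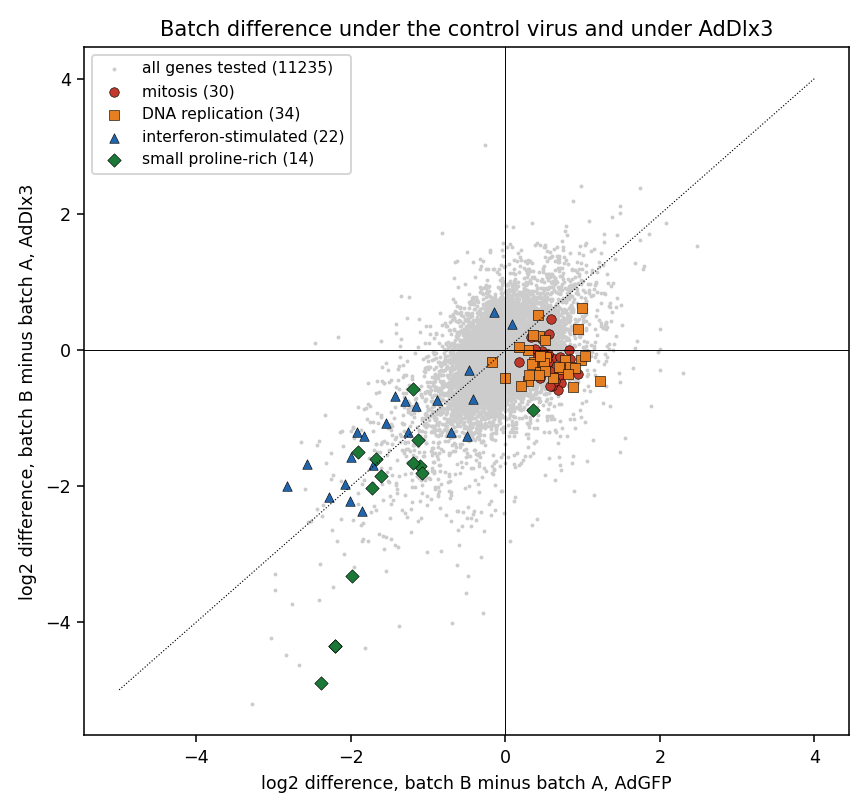
Log2 difference of batch B minus batch A under AdGFP (x axis) and under AdDlx3 (y axis) for the 11235 genes tested, with 4 gene lists marked; the dotted line is equality. Interferon-stimulated and small proline-rich genes lie mostly in the lower left quadrant, whereas mitosis and DNA replication genes lie to the right of 0 under AdGFP and near or below 0 under AdDlx3.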

How the data were processed

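RNA of the 4 AdGFP libraries was compared between batches. The authors deposited RPKM values for 26202 genes. Per the submitters' processing notes, bcl2fastq 2.20.0.422, TopHat2 2.1.1, Partek and build mm10 were used, in roles not stated. Annotation, counting and strand settings are stated neither there nor in other sources used here, so overlapping and near-identical genes may share reads. Alignments per library are from the deposited sample sheet, and RPKM gives no counting interval per gene.

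Values were changed to log2(RPKM + 0.5), which understates changes of low genes, and 11235 genes with at least 1 RPKM in 2 or more of the 4 libraries were kept. limma 3.58.1 in R 4.3.3 with an intensity trend fitted genotype and batch, with 1 residual and 10.7 prior degrees of freedom. Genes were called at a p under 0.05 after Benjamini-Hochberg adjustment over the 11235 genes, and every gene p is two-sided. Errors are standard errors. The scripts were tested on simulated data. The 4 AdDlx3 libraries were fitted alike, and the interaction used all 8 libraries. Genes named are Dlx3, then the 15 higher and 15 lower called genes whose batches do not overlap, ranked by the smaller of the within-genotype differences, with predicted models (81 higher, 34 lower) only counted. From each of the 50 lists up to 4 members of smallest p, and its first 2 as written, may be named; Aloxe3, Lama5, Actg1, Sprr2h, Sprr2k and cluster members were named after their values were seen. The comparison, the lists and their members were chosen with earlier results of these data known. Alternatives were other pseudocounts, filters and scaling, no genotype term, 1 genotype alone, all 8 libraries, no trend and each library left out. The authors' table of their own comparisons was not used. Promoters and positions are RefSeq, GRCm38.p6; figures were drawn with matplotlib 3.10.9 in Python 3.11.15.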

Additional observations from a re-analysis of the deposited data

Results flagged for a closer look

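In 41 of the 122 genes named, limma's interaction of batch and virus passed at an adjusted p under 0.05, beside 17.2% of all genes tested. In these the difference between batches under AdDlx3 departed from that under AdGFP. Many genes were named for their AdGFP difference, which the interaction subtracts, so the choice itself favours such calls. All values here are the log2 difference under AdDlx3 minus that under AdGFP, with 2 libraries per batch under each virus, and no explanation is weighed.

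Of the leaders higher in batch B under AdGFP, the interaction was -2.30 for Cxcl3, -1.99 for Mir7005, -2.63 for Lce1h, -2.0 for Tbx1, -2.71 for Akap12, -1.64 for Slc2a3, -2.84 for Prss22 and -1.69 for Il24. Of the leaders lower in batch B it was -1.64 for Tgfbi, -2.51 for Sprr2a3, -2.14 for Sprr2a2, 2.35 for Tslp and 1.38 for Tprg. Sprr2a1, not a leader, carries values identical to those of Sprr2a2, so this call is counted under both names.

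Among genes of cell division it was -1.30 for Birc5, -0.83 for Mki67, -0.97 for Foxm1, -0.97 for Aurka, -1.67 for Tk1 and -1.16 for Pold1. Basal, adhesion and keratin genes gave -3.58 for Krt5, -2.83 for Krt14, -3.32 for Krt6a, -1.83 for Itga3 and -0.94 for Lama5. Krt5, Krt14 and Krt6a had passed no batch test under AdGFP. Junction genes gave 0.71 for Gjb2, 1.52 for Dsc2 and 0.84 for Dsc3, and barrier genes 1.34 for Elovl7 and -1.24 for Sprr2k.

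Secreted and signalling genes gave -2.98 for Ccl2, -3.28 for Cyp26b1, -1.70 for Nog, -0.91 for Notch1, -1.78 for Thbs1 and 2.14 for Egr2. Stress genes gave 1.57 for Vldlr, 1.05 for Bnip3, 0.78 for Atf4 and 0.78 for Trp53inp1, and the troponin gene Tnni2 gave -2.17. Cyp26b1, Ccl2, Akap12, Prss22, Itga3 and Tk1 were among the genes that passed in opposite directions, higher in batch B under AdGFP and lower under AdDlx3.

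In 8 further genes that passed no batch test under AdGFP, the wild-type and knockout differences had opposite signs, a contrast that was not tested. The knockout minus wild-type log2 difference was -0.071 for Actg1, -0.57 for Ddx3y, -0.17 for Dlx3, 0.21 for Il1a, -0.16 for Klf4, 0.74 for Lor, 0.13 for Rplp0 and 1.01 for Xist.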

How the results depend on the processing

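With no filter on low values limma called 0 of 21777 genes in the AdGFP comparison (5041 at an unadjusted p under 0.05, prior degrees of freedom 1.75), and with no genotype term 1698. With 1 library left out it called between 386 and 1652 (1072 and 1444 in the other two fits). The other alternatives gave between 2340 and 3282 genes, against 2882; scaling by median of ratios gave 2983. The knockout against wild-type count of 55 became 75 with that scaling and 0 to 1 with 1 library left out and no batch term, where between 31 and 609 genes had an unadjusted p under 0.05. The AdDlx3 count of 5531 was 2837 to 4980 with 1 library left out, and the interaction count of 1937 was 804 to 2015; these leave-one-out fits of the last 3 comparisons were chosen after seeing the data. No paired analysis was possible because a block on replicate number would be the batch itself; genotype is a term of the model instead. The cause of these changes was not tested, apart from fewer libraries in the leave-one-out fits. In the knockout against wild-type fits without a batch term, the batch difference enters the error, so few calls follow from the design. Of the genes named, those that changed sign had passed no batch test: Actg1 had -0.0028 with median-of-ratios scaling and -0.12 and -0.080 without the wild-type library of batch A and the knockout library of batch B. In the same 2 fits Dlx3 had 0.42 and 0.51, Lor 0.52 and 0.15, and Rplp0 0.19 and 0.13. Without the knockout library of batch B, Ddx3y had 0.019 and Xist -0.27. Atf4 had 0.0062 without the wild-type library of batch A, and Il1a 0.24 and 0.34 without the knockout library of batch A and the wild-type library of batch B. No named gene that passed changed sign in any alternative, including either genotype alone, where the fit nearly ensures it. With 1 residual degree of freedom the tests lean on variance shared across genes.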

Other observations

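Further gene lists describe the AdGFP cultures beyond keratinocyte differentiation. Every count in this section stands beside 11.2% of all genes higher and 14.5% lower, and several lie near those shares. Of 32 chromatin modifier genes, 6 rose and 3 fell in batch B, with leave-one-out counts of 3, 2, 3 and 2 higher and 0, 0, 2 and 0 lower in the order used above. Kmt2a, a histone H3 lysine methyltransferase, rose from 3.82 and 4.43 RPKM in wild-type and knockout cells of batch A to 8.12 and 8.66 in batch B (log2 difference 0.95 ± 0.14, limma adjusted p = 0.000717), and Kmt2d rose from 5.40 and 5.92 to 11.7 and 9.52. Both were retained, and under AdDlx3 they rose by 0.99 and 0.89 as well. Of 13 EGF receptor pathway genes, 3 rose and 1 fell, with leave-one-out counts of 2, 3, 3 and 1 higher and 0, 0, 2 and 0 lower. Lrig1, which restrains the receptor and marks upper hair follicle stem cells, rose from 23.3 and 22.6 to 41.5 and 39.9 RPKM (limma adjusted p = 0.000923). Of 12 hair follicle genes, 4 rose and 2 fell, with leave-one-out counts of 2, 3, 1 and 2 higher and 2, 2, 2 and 1 lower. Lhx2, a LIM homeobox factor of follicle stem cells, rose from 2.90 and 2.56 to 7.62 and 6.35 RPKM (limma adjusted p = 0.000198), and by 1.23 on the log2 scale under AdDlx3. Krt79, a keratin of the follicle duct, fell from 2.81 and 2.60 to 1.08 and 1.13.

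Of 28 genes known as p53 targets, 6 rose and 4 fell, with leave-one-out counts of 4, 1, 2 and 0 higher and 4, 3, 1 and 1 lower. Trp53inp1, a stress-induced p53 partner, fell from 18.1 and 17.2 to 10.1 and 10.2 RPKM (limma adjusted p = 0.00156) and was retained. Cdkn1a, which encodes the cell cycle inhibitor p21, had 238 and 244 RPKM in batch A and 204 and 165 in batch B and did not pass (adjusted p = 0.0765). Of 14 circadian clock genes 3 fell and 0 rose (leave-one-out counts 2, 1, 2 and 0), and of 14 imprinted genes 2 rose and 1 fell (leave-one-out counts 1, 2, 1 and 0 higher and 1, 2, 1 and 0 lower). Of 6 replication-dependent histone genes tested, 2 fell and 0 rose, with leave-one-out counts of 1, 2, 2 and 0 lower and 1, 0, 0 and 0 higher.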
